A study of Mus musculus with 4 samples.

Results

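The 9 genes described here run the hepatic glycogen cycle: Ppp1r3g, Ppp1r3b, Ppp1r3c and Ppp1r3d encode glycogen-targeting subunits of protein phosphatase 1, Gys2 the liver glycogen synthase, Gbe1 the branching enzyme, Ugp2 the enzyme that makes UDP-glucose, Pygl the liver glycogen phosphorylase and Gsk3b a kinase that inhibits glycogen synthase. They were found by name among 31709 gene names on the array and are read by 13 of its 39429 probes. The genes were selected on their names as a pathway, with the log2 ratios of IlrunKO over WT on these arrays already known. Those ratios and the levels behind them are therefore given as a description, without p-values, and a count of genes that passed a threshold is not evidence about the pathway.

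Livers came from 4 male IlrunKO mice, which lack Ilrun in the whole body, and from 4 male WT mice. All mice were C57BL/6, were kept on chow and were fasted for 4 h; the labels used here state no age. Each of 4 two-colour Agilent arrays held RNA of 1 IlrunKO and 1 WT liver; IlrunKO RNA carried the dye Cy5 on arrays 1 and 2 and Cy3 on arrays 3 and 4, with WT RNA in the other dye. Nothing in the labels says whether animals were pooled or littermates, or which part of Ilrun was deleted.

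Liver stores glucose as glycogen after meals and returns it to blood between meals. UDP-glucose is built into chains by glycogen synthase and branched by the branching enzyme, while phosphorylase removes glucose units again. Targeting subunits hold protein phosphatase 1 on the glycogen particle, where it activates synthase and inactivates phosphorylase, and Gsk3b opposes it on synthase. In mouse liver, Ppp1r3g is known as a subunit whose mRNA is higher in fasting, and Ppp1r3b as one that insulin raises.

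Probe sequences show what was measured for the genes with the clearest pattern, Ppp1r3g and Pygl, and for Gys2 and Ugp2, whose probes differed from each other. The first 30 of the 60 bases of each probe are given, with positions of the whole probe on mouse genome mm9 as the array files give them.
Ppp1r3g (chr13:36061999-36062058, plus strand): agattcgatgtattttcttccgtgattgga
Pygl (chr12:71291855-71291914, minus strand): cttccctgattctgtttttgtcattgaata
Gys2, brighter probe (chr6:142371157-142371216, minus strand): gagtcaccttactgtaacggtacttttgtt
Gys2, dimmer probe (chr6:142371915-142371974, minus strand): ctttccaaaggggaagaaaaagcttcatgg
Ugp2, brighter probe (chr11:21221975-21222034, minus strand): ggatcactgaaataagcactttcagataca
Ugp2, dimmer probe (chr11:21221281-21221340, minus strand): gatatcatgtcattagaagttacctctcat
Which exon or UTR each probe lies in was not worked out, because gene models for mm9 were not used here.

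Promoters are shown for Ppp1r3g and Pygl, whose levels did not overlap between genotypes. Each run holds the 250 bases before a transcription start listed by RefSeq on GRCm38.p6, 5′ to 3′ on the gene's strand. Capitals mark TGACG, the core of the cAMP response element, which was searched on both strands.
Ppp1r3g (chr13:35967656-35967905, plus strand): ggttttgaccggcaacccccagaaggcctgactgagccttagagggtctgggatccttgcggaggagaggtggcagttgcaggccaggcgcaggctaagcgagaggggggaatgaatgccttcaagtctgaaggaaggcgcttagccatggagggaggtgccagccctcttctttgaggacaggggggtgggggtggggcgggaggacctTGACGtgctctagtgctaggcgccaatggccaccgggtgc
Pygl (chr12:70227684-70227933, minus strand): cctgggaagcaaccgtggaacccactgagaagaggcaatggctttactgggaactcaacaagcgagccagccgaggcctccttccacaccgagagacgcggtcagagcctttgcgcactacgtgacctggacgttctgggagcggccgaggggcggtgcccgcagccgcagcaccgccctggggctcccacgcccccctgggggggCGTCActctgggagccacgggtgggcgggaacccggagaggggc
One match began 40 bases before the start of Ppp1r3g and 1 began 44 bases before that of Pygl, where it lies on the opposite strand and so reads CGTCA. The core TGACG occurs in 17.8% of the 32851 promoter windows of this length, so a match is common. The full cAMP response element TGACGTCA, which contains that core and occurs in 1.55% of windows, had no match in either gene. Nor did the FOXO element GTAAACA, which occurs in 3.17% of windows. The E-box CACGTG, found in 6.02% of windows, was also without a match in both, as was the TATA element TATAAA, found in 12.4% of windows. Of the 9 genes, 7 had a listed promoter, and among the other 5 of these the E-box had 1 match each in Ppp1r3c and Ppp1r3d, the TGACG core 2 matches in Ppp1r3d, and the TATA element 1 match in Gsk3b. Such matches describe letters in a window and are no evidence of a binding site.

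All 13 probes were well above background in all 8 channels, so all 9 genes passed the filter on dim probes and none owes its place to one genotype. Ratios below are log2 of IlrunKO over WT, and levels are log2 intensities after normalisation between arrays, compared between livers for the same probe only. Of 19658 genes tested by limma, 1.37% passed an adjusted p of 0.05, with 0.656% lower and 0.717% higher in IlrunKO liver. Of the 9 glycogen genes 1 passed as lower, Ppp1r3g, and 0 passed as higher (20.5% of all genes had an unadjusted p under 0.05); nothing is read from these counts. In mean ratio 7 lay below 0 and 2 above, with a median of -0.11, against a median of -0.0014 and 50.6% below 0 over all genes tested. Fewer cells of a type and less RNA per cell cannot be told apart in whole liver.

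**Figure D1:**
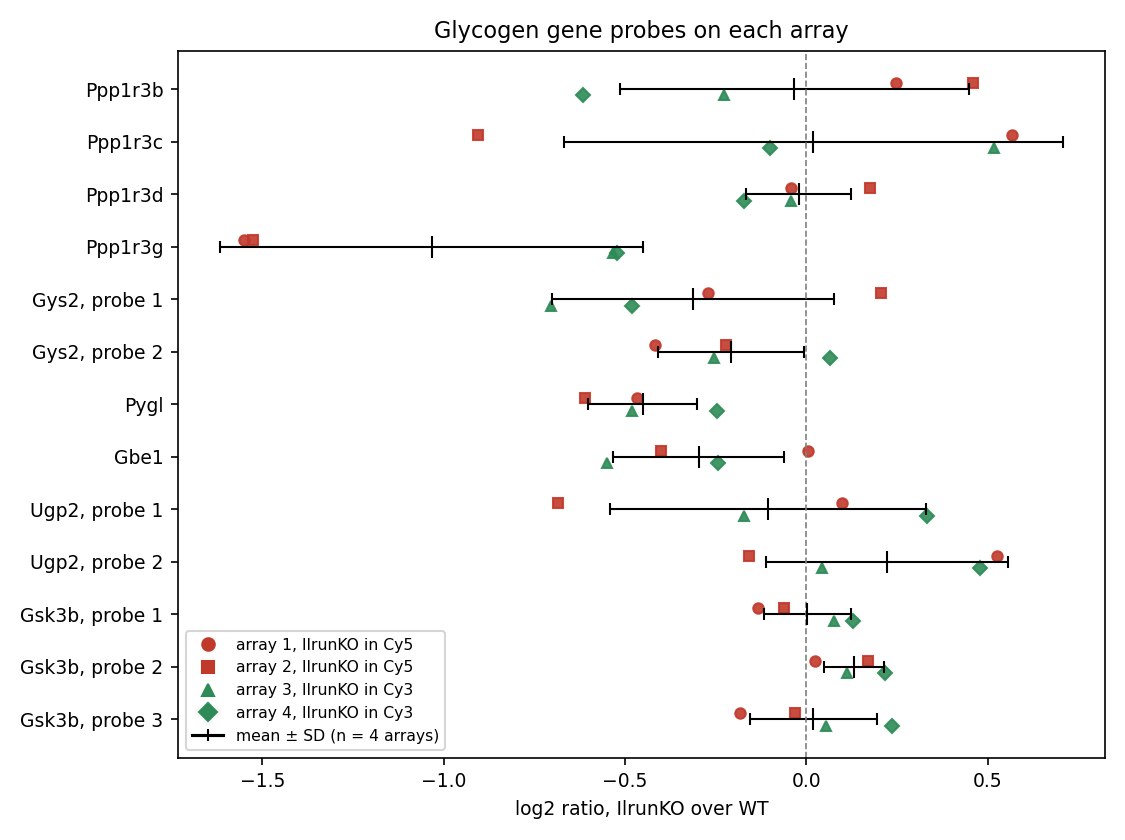
Log2 ratio of IlrunKO over WT (horizontal axis) for the 13 probes of the 9 glycogen genes; symbols are arrays, colours the dye of IlrunKO RNA, and bars the mean ± SD of 4 arrays. Ppp1r3g and Pygl lie left of 0 on all 4 arrays, and Ppp1r3g forms a pair near -1.5 and a pair near -0.53; where a gene has several probes, they are numbered from the brightest.

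Among the targeting subunits, Ppp1r3g was lower in every IlrunKO liver. Its level was 9.37, 9.90, 10.44 and 10.59 in IlrunKO livers 1 to 4, against 10.92, 11.43, 10.97 and 11.11 in WT livers 1 to 4. The highest IlrunKO liver thus stayed below the lowest WT liver. The mean level was 10.07 ± 0.56 in IlrunKO liver and 11.11 ± 0.23 in WT liver (SD, n = 4 each), a 2.05-fold lower mean. Levels that do not overlap were seen in 8.93% of all genes tested and, with IlrunKO lower, in 4.21%; among the 9 genes they were seen in 2, Ppp1r3g and Pygl.

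The size of the Ppp1r3g difference depended on the array. Arrays 1 and 2 gave log2 ratios of -1.55 and -1.53, whereas arrays 3 and 4 gave -0.53 and -0.52, with a mean of -1.03 ± 0.58 (SD, n = 4). Arrays of the same dye orientation thus agreed closely, while the means of the orientations, -1.54 and -0.53, differed by 1.01. A gap over 1 in either direction was seen in 0.977% of all genes tested, whose median gap was 0.15. Most of the gap lay in the IlrunKO channels: IlrunKO liver read in Cy5 was 0.88 below IlrunKO liver read in Cy3, while WT liver read in Cy5 was 0.13 below WT liver read in Cy3. Dye and mouse cannot be told apart here, since each liver was read in 1 dye.

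Ppp1r3g passed in the fit with a dye term. It did not pass without the dye term, where 181 of all genes did, against 270 with it. It also did not pass without array 3, without array 4 or with median centring, where the dye term was kept and 1 gene in all passed in each case. Leaving out array 1 or array 2 gave Ppp1r3g a plain mean ratio of -0.86 or -0.87, and leaving out array 3 or array 4 gave -1.20.

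Ppp1r3b encodes the main targeting subunit of rodent liver. Its level was 12.35, 12.42, 11.95 and 11.99 in IlrunKO livers, against 12.10, 11.96, 12.18 and 12.61 in WT livers. IlrunKO was the higher on arrays 1 and 2 and the lower on arrays 3 and 4, and the groups overlapped. The ratios were 0.25, 0.46, -0.23 and -0.61, with a mean of -0.033 ± 0.48 (SD, n = 4). Such a change of sign with dye orientation was seen in 23% of all genes tested, and among the 9 in Ppp1r3b and Gsk3b.

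Ppp1r3c, also called protein targeting to glycogen, had the widest spread of the 9 over the arrays. Its level was 9.73, 8.86, 9.71 and 9.86 in IlrunKO livers, against 9.16, 9.77, 9.19 and 9.96 in WT livers. IlrunKO liver 2 was the lowest of the 8, while WT livers 1 and 3 were low among WT livers. Ratios of 0.57, -0.91, 0.52 and -0.10 averaged 0.020 ± 0.69 (SD, n = 4). The plain mean of the other 3 arrays was -0.16, 0.33, -0.15 and 0.059 without arrays 1 to 4, so its sign depended on which array was left out.

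Ppp1r3d, a more widely expressed targeting subunit, stayed close to 0, with ratios of -0.043, 0.18, -0.043 and -0.17 (mean -0.021 ± 0.14, SD, n = 4). Its level ran between 6.39 and 6.58 in IlrunKO livers and between 6.41 and 6.57 in WT livers, so the ranges nearly coincided. It was the dimmest of the 13 probes, and a ratio near 0 at so dim a probe says little about the gene. With a normexp offset of 0 the mean was -0.026. Other targeting subunits of the family, Ppp1r3a, Ppp1r3e and Ppp1r3f, were on the array but did not pass the filter on dim probes, being well above background in at most 1 of 4 channels of either genotype.

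**Figure D2:**
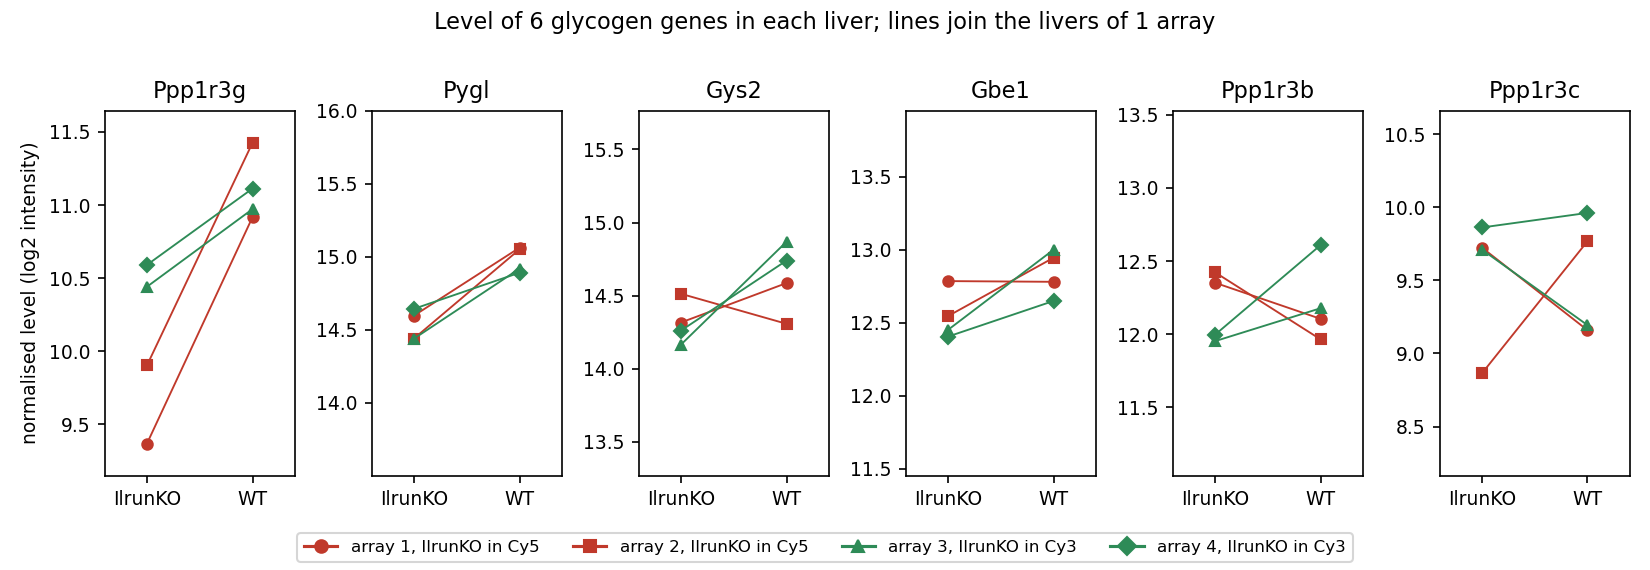
Normalised level (log2 intensity, vertical axis, each panel spanning the same range) of 6 glycogen genes in each IlrunKO and WT liver; lines join the livers hybridised to 1 array and colours give the dye of IlrunKO RNA. All 4 lines climb toward WT for Ppp1r3g and Pygl, whereas lines cross for Ppp1r3b and Ppp1r3c.

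On the side of synthesis, Gys2 was lower in IlrunKO liver on 3 of 4 arrays. The brighter Gys2 probe read 14.32, 14.51, 14.16 and 14.26 in IlrunKO livers, against 14.59, 14.31, 14.87 and 14.74 in WT livers. IlrunKO liver 2 lay above WT liver 2, and the groups overlapped. Its ratios of -0.27, 0.21, -0.71 and -0.48 averaged -0.31 ± 0.39 (SD, n = 4), or 1.24-fold lower. The dimmer probe, which starts 758 bases away, gave -0.42, -0.22, -0.26 and 0.065 (mean -0.21 ± 0.20, SD, n = 4). Each probe was below 0 on 3 arrays, but the array above 0 was array 2 for one and array 4 for the other, and the pair had the same sign on 2 arrays.

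Gbe1, which adds the branches, read 12.78, 12.54, 12.45 and 12.40 in IlrunKO livers, against 12.78, 12.94, 13.00 and 12.65 in WT livers. Ratios were 0.0049, -0.40, -0.55 and -0.24, with a mean of -0.30 ± 0.24 (SD, n = 4), or 1.23-fold lower. Array 1 showed no difference, and its IlrunKO liver reached into the WT range.

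Ugp2 had no settled direction. The brighter probe gave ratios of 0.098, -0.68, -0.17 and 0.33 (mean -0.11 ± 0.44, SD, n = 4), and the dimmer one 0.52, -0.16, 0.044 and 0.48 (mean 0.22 ± 0.33, SD, n = 4). On each array the brighter probe stood below the dimmer one, by 0.33 ± 0.18 in the mean (SD, n = 4), although the probes start only 694 bases apart. Both probes ordered the arrays alike at the low end, array 2 being the lowest.

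Pygl, which releases glucose from glycogen, had a smaller but more even difference than Ppp1r3g. Its level was 14.60, 14.44, 14.44 and 14.64 in IlrunKO livers, against 15.06, 15.05, 14.92 and 14.89 in WT livers. All IlrunKO livers lay below all WT livers. The ratios were -0.47, -0.61, -0.48 and -0.25, with a mean of -0.45 ± 0.15 (SD, n = 4), or 1.37-fold lower, and a gap between orientations of -0.17. Ratios below 0 on all 4 arrays were seen in 11.5% of all genes tested. Pygl did not pass the threshold over all genes. It did pass without background correction and with a trended robust variance.

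Gsk3b, the kinase opposing synthase activation, was read by 3 probes and stayed within 0.24 of 0 on every array at each of them. The brightest gave -0.13, -0.060, 0.075 and 0.13 (mean 0.0029 ± 0.12, SD, n = 4), the lowest spread among the 9 genes. The second gave 0.023, 0.17, 0.11 and 0.22 (mean 0.13 ± 0.083, SD, n = 4). The dimmest, whose 60 bases span 3646 bases of chromosome 16 (38187987 to 38191632) and so cross a splice junction, gave -0.18, -0.030, 0.054 and 0.24 (mean 0.020 ± 0.17, SD, n = 4).

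**Figure D3:**
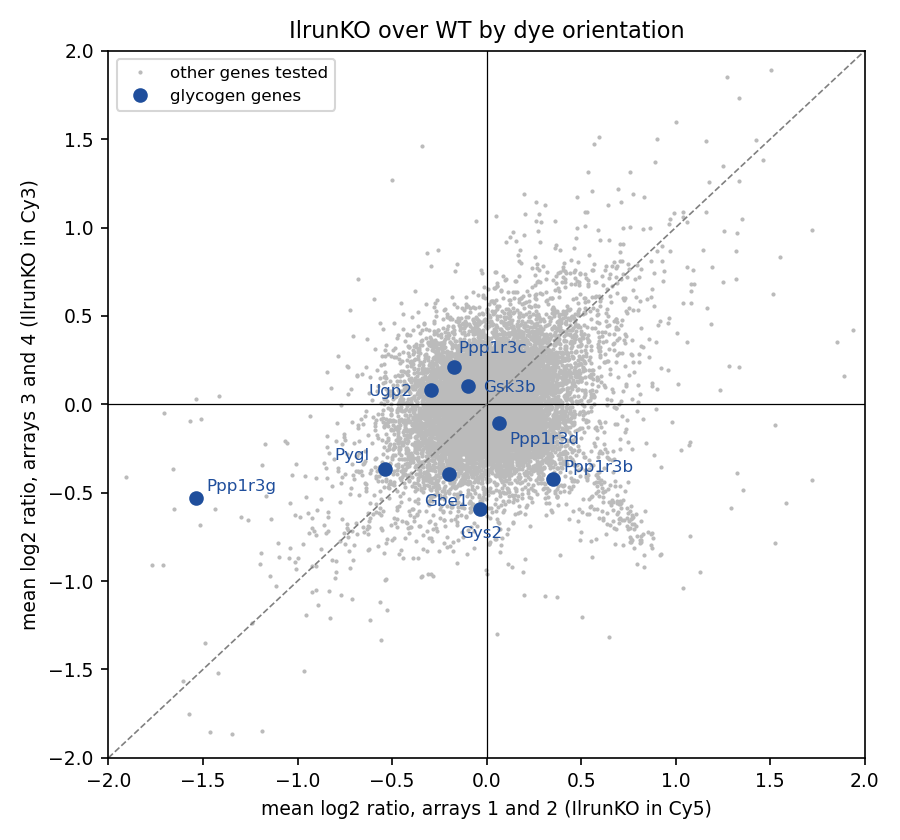
Mean log2 ratio of IlrunKO over WT on arrays 3 and 4 (vertical axis) against that on arrays 1 and 2 (horizontal axis) for all genes tested, with the 9 glycogen genes in blue and equal values on the dashed line; 17 genes lie beyond the plotted range of 2 in size. Ppp1r3g stands at -1.54 and -0.53, far from the line, while Pygl at -0.54 and -0.36 is close to it and Ppp1r3b at 0.35 and -0.42 has opposite signs.

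Array by array, 5, 6, 7 and 7 of the 9 genes lay below 0 on arrays 1 to 4, with medians of -0.043, -0.40, -0.23 and -0.24. Between 47.1% and 53.9% of all genes lay below 0 on each array. Markers of hepatocytes moved with array too: all 12 were well above background in all 8 channels, and their median ratio was -0.057, 0.13, -0.41 and -0.45 on arrays 1 to 4. The brighter Gys2 probe, Ppp1r3b and Ppp1r3d were likewise at their highest on array 2 and below 0 on arrays 3 and 4. The dimmer Gys2 probe went otherwise, at -0.22 on array 2 and highest on array 4 at 0.065. Ppp1r3c, Pygl and both Ugp2 probes were instead at their lowest on array 2. Ppp1r3g, Gbe1 and Gsk3b had neither their highest nor their lowest ratio there. Ppp1r3g and Pygl were below 0 on all 4. The part of hepatocyte content in these ratios was not tested.

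The other genes of glycogen metabolism gave no call in limma: of 25 listed, 21 were tested, 0 passed in either direction, and 11 had an unadjusted p under 0.05, against 20.5% of all genes tested. Their median ratio was 0.12, with 16 of 21 above 0. The untested ones were the dim Ppp1r3a, Ppp1r3e and Ppp1r3f, and Ppp1cb, a catalytic subunit of the phosphatase, whose spot was marked as an outlier on 3 arrays. The smallest p belonged to Epm2aip1, which encodes a partner of the glycogen phosphatase laforin, with ratios of 0.24, 0.30, 0.26 and 0.47 (mean 0.32 ± 0.10, SD over 4 arrays; limma adjusted p = 0.0784). Nhlrc1, the ubiquitin ligase malin, stood at 0.29 ± 0.14 (SD over 4 arrays; limma adjusted p = 0.11). Phkb, a regulatory subunit of phosphorylase kinase, stood at 0.22 ± 0.12 (SD over 4 arrays; limma adjusted p = 0.113). Other probes of these genes were nearer to 0, at 0.018 for Epm2aip1, 0.095 for Nhlrc1 and 0.077 for Phkb. These probes were dimmer, and that of Nhlrc1 was well above background in 2 of 4 IlrunKO channels. The part of low signal in their ratios was not tested.

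Several genes of that list encode forms of the same enzymes that other tissues use. Gys1, the synthase of muscle and other tissues, stood at 0.19 ± 0.069 (SD over 4 arrays; limma adjusted p = 0.144), above 0 on all 4 arrays, whereas the brighter Gys2 probe averaged -0.31. Pygb and Pygm, the brain and muscle phosphorylases, stood at 0.0021 and 0.027 (limma adjusted p = 0.99 and 0.868), whereas Pygl averaged -0.45. The Gys1, Pygb and Pygm probes were dim, at mean levels of 7.18, 6.94 and 7.95 in WT liver. A ratio near 0 at a dim probe says little about the gene, and the part of low signal here was not tested. Ppp1r2, an inhibitor of the phosphatase, had the lowest mean of the list, -0.16 ± 0.28 (SD over 4 arrays; limma adjusted p = 0.516). Gys1, Pygb, Pygm and Ppp1r2 were named for these contrasts after their values were seen, and the differences between isoforms were not tested.

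Of 11 genes that supply or use glucose 6-phosphate, 1 passed as lower, against 0.656% of all genes tested, and 10 did not pass. In this list 3 had an unadjusted p under 0.05 in limma, against 20.5% of all genes tested. G6pc, which encodes the hepatic enzyme that frees glucose from glucose 6-phosphate, read 13.11, 13.54, 13.74 and 13.82 in IlrunKO livers, against 14.94, 14.74, 14.35 and 14.58 in WT livers. All IlrunKO livers were below all WT livers, with ratios of -1.84, -1.20, -0.61 and -0.76 (mean -1.10 ± 0.55, SD over 4 arrays; limma adjusted p = 0.036). G6pc did not pass without the dye term, without array 3 or without array 4 (limma adjusted p = 0.0838, 0.168 and 0.147), nor with median centring or Agilent processed signals (limma adjusted p = 0.184 and 0.0628). Hk3, a hexokinase of blood cells, stood at 0.24 ± 0.22 (SD over 4 arrays; limma adjusted p = 0.2). The median of the list was 0.052, near that of all genes.

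**Figure D4:**
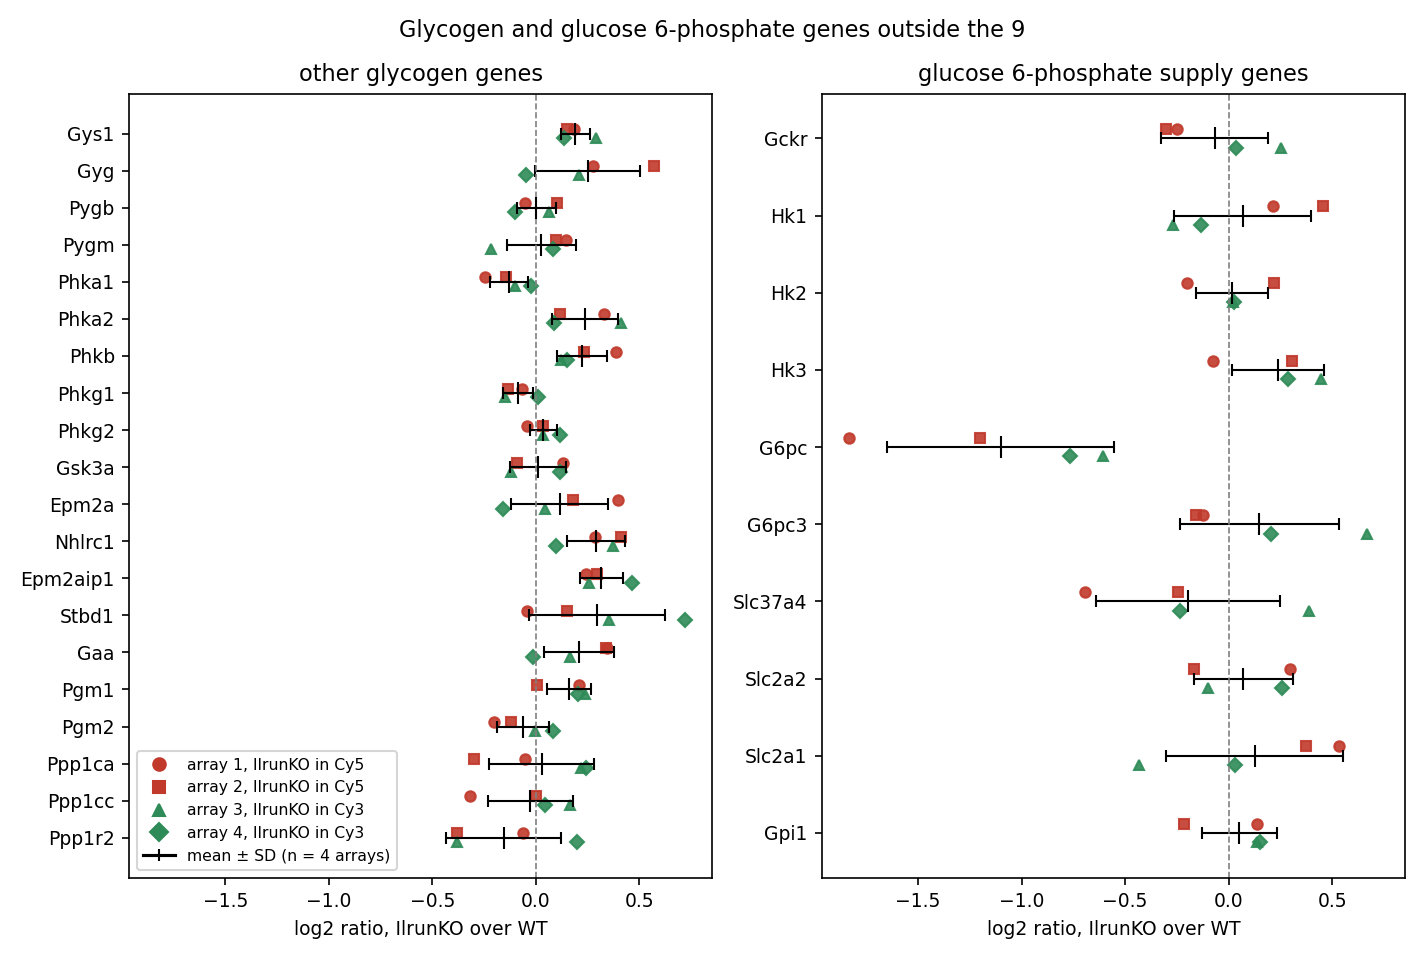
Log2 ratio of IlrunKO over WT (horizontal axis) on each array for tested genes of glycogen metabolism outside the 9 (left) and of glucose 6-phosphate supply (right), with mean ± SD of 4 arrays. G6pc lies below 0 on all 4 arrays, and 15 of the 20 genes plotted on the left have a mean above 0.

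Insulin, glucagon, adrenergic and energy signals act on the glycogen enzymes through 23 listed genes, all of them tested. In limma 0 passed in either direction, and 5 had an unadjusted p under 0.05, against 20.5% of all genes tested. The median ratio was -0.041, with 15 of 23 below 0. Irs1, an adaptor of the insulin receptor, was below 0 on all 4 arrays at -0.12, -0.61, -1.07 and -0.67 (mean -0.62 ± 0.39, SD over 4 arrays; limma adjusted p = 0.0785), with another, dimmer probe at -0.11. Adra1b, the adrenergic receptor that drives glycogen breakdown through calcium, stood at -0.35 ± 0.22 (SD over 4 arrays; limma adjusted p = 0.09), with another, dimmer probe at -0.18. Irs2, the adaptor best known from liver, stood at -0.42 ± 0.35 (SD over 4 arrays; limma adjusted p = 0.165), with array 2 apart at 0.11.

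Among all genes with a symbol, those nearest to Ppp1r3g over the 4 arrays were Gm4013, Rrm2, Gdf15, G6pc and Cyp39a1. The root mean square difference between their 4 log2 ratios and those of Ppp1r3g ran from 0.171 for Gm4013 to 0.284 for Cyp39a1. Rrm2 encodes a subunit of ribonucleotide reductase, Gdf15 a stress cytokine and Cyp39a1 an oxysterol hydroxylase. G6pc, at a difference of 0.25, was the nearest of the glucose genes. Among the 5 nearest to Pygl were Ulk2, Fam83g, Coq10a and Hexim1, with differences from 0.0477 for Ulk2 to 0.0822 for Hexim1. Likeness over 4 arrays is a description and was not tested.

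Ilrun itself had a ratio of -4.21 ± 0.24 (SD, n = 4) at its brighter probe, which matches the labelled genotypes. The dimmer probe was well above background in 1 of 4 IlrunKO channels and in 4 of 4 WT channels, and its ratio is not given. Between 60.0% and 67.3% of probes were well above background in each channel. The summed intensity of the 12 hepatocyte markers ran from 798000 to 1262000 in IlrunKO livers and from 1003000 to 1338000 in WT livers. That of the 10 adipocyte markers ran from 6628 to 9954 in IlrunKO livers and from 3547 to 4228 in WT livers. In limma 2 of them passed as higher, against 0.717% of all genes tested. Of the 7 that passed the filter 5 had a mean above 0, with a median of 0.69. The median of these 7 was 0.83, 0.20, 0.80 and 0.71 on arrays 1 to 4. The defining adipocyte markers Adipoq, Lep and Plin1 did not pass the filter on dim probes, and neither did any of 8 skeletal muscle markers. For 10 Kupffer cell and macrophage markers the sums were 25990 to 40510 in IlrunKO and 20260 to 31680 in WT livers. The 10 stellate markers summed to 14830 to 21310 in IlrunKO and 20080 to 24430 in WT livers, and the 10 endothelial markers to 22300 to 26130 in IlrunKO and 23850 to 26870 in WT livers. In limma 0 markers of the hepatocyte, Kupffer cell, stellate and endothelial lists passed. Their ratios leaned to one side nonetheless. Of the Kupffer cell and macrophage markers 9 of 10 had a mean above 0, with a median of 0.40, and the list's median was below 0 on array 1 alone. Of the stellate markers 0 of 10 had a mean above 0, with a median of -0.29 and a median below 0 on each of the 4 arrays. Of the hepatocyte markers 2 of 12 had a mean above 0, with a median of -0.20, and of the endothelial markers 1 of 10, with a median of -0.061. The part of these cell types in the ratios of the glycogen genes was not tested.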

How the data were processed

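The labels give the genotype behind each dye. The authors deposited scanner output of Feature Extraction 10.10.1.1, named per the file headers, with each spot's intensity per channel and its log10 ratio, and a table of log2 ratios. The submitters' processing notes name limma and no settings. Its direction is IlrunKO over WT on every array, since its correlation across 24632 bright spots with the scanner's Cy5 over Cy3 ratio was 0.96 and 0.954 on arrays 1 and 2 and -0.958 and -0.956 on arrays 3 and 4. The labels state that 500 ng of RNA per sample was labelled.

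Here mean spot intensity was corrected with normexp (offset 50) in limma 3.58.1 (R 4.3.3). Loess then normalised each array, giving 1377 control spots no weight. Outlier spots were left out, none of them at the 9 genes. Of the probes, 26055 were named by RefSeq accession, 4125 by symbol or synonym, and 9249 kept the file's name. The brightest probe stood for a gene, kept if well above background in at least 3 of 4 channels of either genotype. Each gene was fitted by lmFit and eBayes with genotype and dye terms (2 residual degrees of freedom, prior 2.83, median standard error 0.0566), two-sided, with Benjamini-Hochberg adjustment. Levels were taken after Aquantile normalisation between arrays. The number of arrays limits precision. The labels call the replicates biological and say nothing of pooling.

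Named were all 9 genes with every probe, Ilrun, the genes past the threshold and the 3 with the smallest p in each other list, and the 5 nearest genes to each of the 2 glycogen genes with the largest mean ratio. A few genes that this rule or the lists hold are not reported here. The 9 genes and all lists were chosen with earlier results of these data known. Alternatives covered background, normalisation, filter, probe choice, variance, dye term, threshold, the deposited table and each array left out. Tested on simulated data (19658 genes, 200 changed per run, 5 runs), the fit recovered 51.6% of changes of 0.5 and 93.2% of changes of 1.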

Additional observations from a re-analysis of the deposited data

Results flagged for a closer look

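In 48 sets of 4 values checked, 2 held a value standing far from the other 3; chance gives about 1 in 20. For Ppp1r3c, IlrunKO liver 2 read 8.86, below the other IlrunKO livers at 9.71 to 9.86. For Irs2, the log2 ratio of 0.11 on array 2 stood above the other arrays, at -0.64 to -0.55.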

How the results depend on the processing

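The ratios of the 9 glycogen genes were recomputed in 14 settings each, 126 in all. A fit that leaves out an array averages the means of the dye orientations. Of the 126, 125 stayed within 1 SD of the reported value, and Pygl moved to -0.61 with median centring. Many of the 126 could not have moved that far, so this count does not measure stability. In this balanced design the dye term, the filter and the variance model leave these ratios unchanged. Leaving out 1 array cannot move such a fit by 1 SD. Ppp1r3g ranged from -1.17 to -1.03, Pygl from -0.61 to -0.39, Gys2 from -0.47 to -0.19 and Gbe1 from -0.43 to -0.20, whereas Ppp1r3b, Ppp1r3c, Ppp1r3d, Ugp2 and Gsk3b each changed sign in at least 1 setting. Plain means of the other 3 arrays were added after seeing the data. They ran from -1.20 to -0.86 for Ppp1r3g and from -0.52 to -0.40 for Pygl. Of the 9, 0 passed without the dye term or with median centring, and 2 passed (Ppp1r3g and Pygl) without background correction, with a trended robust variance or at an adjusted p under 0.1; leaving out an array gave 0 to 1. Calls over all genes, 270 in the reported fit, were 442 without background correction, 61 with Agilent processed signals, 1 with median centring, 412 with a trended robust variance, 449 with the deposited table, 1118 at 0.1, and 1 to 464 without an array (64.2% of the 464, without array 1, were higher, against 52.2%). The glucose 6-phosphate list had 0 calls without the dye term, with Agilent processed signals or with median centring, and 0 to 1 without an array. At 0.1 the other glycogen genes had 1 call (Epm2aip1) and the signalling genes 2 (Irs1 and Adra1b). Without array 1 Irs1 passed, and without array 2 Irs2 passed. Leaving out an array leaves the residual spread to the intact pair of the other orientation. The cause of the other changes was not tested. IlrunKO and WT livers shared arrays, so each ratio is already paired. Signal over background limits Ppp1r3a, Ppp1r3e and Ppp1r3f, which were not tested.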
